A study of Mus musculus with 5 samples.

Results

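Slc38a1 to Slc38a5 encode sodium-coupled neutral amino acid transporters of the plasma membrane. They were taken by symbol and were 5 of the 36529 genes listed in single-cell RNA sequencing tables from mouse pancreatic tumors and islets. The tumors came from mice with a homozygous knockout of Gcgr, the glucagon receptor gene, and were held as 3 libraries, called tumor A, tumor B and tumor C. The islets were 1 library from homozygous Gcgr knockout mice and 1 library from heterozygous mice. No group had a treatment, all animals ate standard rodent chow, and neither a wild-type islet library nor an age or strain is given in the labels. All groups, the heterozygous islets included, thus carry at least 1 knockout allele of Gcgr. The header of the tumor table names its libraries by animal, whereas each islet genotype is a single library with no replicate.

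The family works by letting sodium carry small neutral amino acids such as glutamine, alanine, serine and asparagine across the cell membrane. Slc38a1, Slc38a2 and Slc38a4 are the system A transporters, of which Slc38a2 is known to be induced when cells lack amino acids. Slc38a3 and Slc38a5 are the system N transporters, which favour glutamine, histidine and asparagine and can run in either direction. Glucagon normally acts on the liver to burn amino acids, so loss of its receptor raises blood amino acids and the number of glucagon-producing alpha cells, and Slc38a5 is a known component of that alpha cell response in mice.

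On the GRCm38.p6 assembly, the system A genes Slc38a1 (chr15:96571418-96643438), Slc38a2 (chr15:96687392-96699728) and Slc38a4 (chr15:96994816-97055956) lie side by side. No protein-coding gene (0) is annotated in the gap of 44.0 kb between Slc38a1 and Slc38a2 or in that of 295.0 kb between Slc38a2 and Slc38a4. Slc38a3 (chr9:107651154-107668968) and Slc38a5 (chrX:8271381-8280179) stand alone. Despite their shared neighbourhood, Slc38a2 and Slc38a4 had different patterns across cell types, described below, while Slc38a1 was too rare to compare. RefSeq promoter windows, from 250 bases before to 50 bases after an annotated start on the same assembly, matched Slc38a2, Slc38a4 and Slc38a5. The windows of Slc38a5 (chrX:8271131-8271430, plus strand) and Slc38a2 (chr15:96699679-96699978, minus strand) are shown because these 2 genes gave the widest differences between alpha cells of the islet genotypes.
Slc38a5: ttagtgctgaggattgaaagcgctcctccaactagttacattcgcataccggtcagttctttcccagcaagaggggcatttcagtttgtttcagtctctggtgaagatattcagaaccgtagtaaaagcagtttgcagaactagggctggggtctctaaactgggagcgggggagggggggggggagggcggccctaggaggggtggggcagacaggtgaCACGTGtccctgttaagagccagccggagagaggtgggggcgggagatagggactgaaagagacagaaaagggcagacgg
Slc38a2: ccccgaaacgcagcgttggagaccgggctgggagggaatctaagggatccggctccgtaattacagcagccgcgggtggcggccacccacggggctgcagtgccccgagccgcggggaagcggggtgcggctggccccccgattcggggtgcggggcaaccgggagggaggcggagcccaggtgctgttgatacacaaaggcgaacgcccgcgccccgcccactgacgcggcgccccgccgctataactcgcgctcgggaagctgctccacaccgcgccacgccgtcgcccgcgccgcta
Capitals mark CACGTG, the E-box letters, which read the same on both strands and began 30 bases before the Slc38a5 start (position -30). The same letters occurred in 7.15% of 32851 mouse promoter windows of that length. The other motifs searched on both strands were TGATGNAAN (the amino acid response element, in 3.95% of windows), TGACGTCA (the cyclic AMP response element, in 1.79%) and TATAAA (the TATA box, in 13.6%). None of these 3 occurred in either window shown, and CACGTG did not occur in the Slc38a2 window. Bases outside the windows were not searched, so these genes may hold the motifs elsewhere. The Slc38a2 window held 73.0% G and C bases and the Slc38a5 window 56.0%, against a median of 52.7% over all windows. Of the 3 Slc38a4 windows, which held 53.0%, 46.7% and 45.3% G and C, 1 held TATAAA, at position -208.

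The libraries held 10508498, 22893238 and 22161240 unique molecular identifiers (UMIs, each a counted transcript molecule) in tumors A, B and C, 34101553 in homozygous islets and 22174810 in heterozygous islets. No cell barcode name (0 of 6645) was shared between cells. Cells that passed filters and stood for the alpha lineage numbered 495, 846 and 1084 in the tumors, where all cells were used, and 1525 in homozygous and 306 in heterozygous islets, where the authors' type names were used. All 8 alpha cell markers, including Gcg (proglucagon), were found in each of these 5 groups and summed to between 393500 and 426400 CPM (UMIs per 1000000). Beta cell markers summed to 7.24, 138 and 3334 CPM in tumors A, B and C. They summed to 11510 CPM in homozygous and 55580 CPM in heterozygous alpha cells. The pancreatic polypeptide marker Ppy had the other order, at 76620 CPM in homozygous and 16010 CPM in heterozygous alpha cells. In tumors A, B and C it had 2349, 275.5 and 540.3 CPM. The part of beta cell markers and of Ppy in the results was not tested. Gcgr gave 0, 1 and 3 UMIs in the tumors and 0 UMIs in homozygous alpha cells, against 8 UMIs in heterozygous alpha cells.

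Slc38a5 was the transporter with the widest spread of levels across the alpha lineage. Pooled over cells, its level was 1169 CPM in tumor A (95% Poisson interval 1148 to 1190), 1837 CPM in tumor B (1819 to 1855) and 1621 CPM in tumor C (1604 to 1638). It was 766.1 CPM in homozygous alpha cells (754.6 to 777.7) and 96.7 CPM in heterozygous alpha cells (86.3 to 108). These intervals, like all those given here, cover counting error only, and no neighbours in this order overlapped. Every tumor was above the alpha cells of both islet libraries, a split whose share over all genes was not counted.

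**Figure D1:**
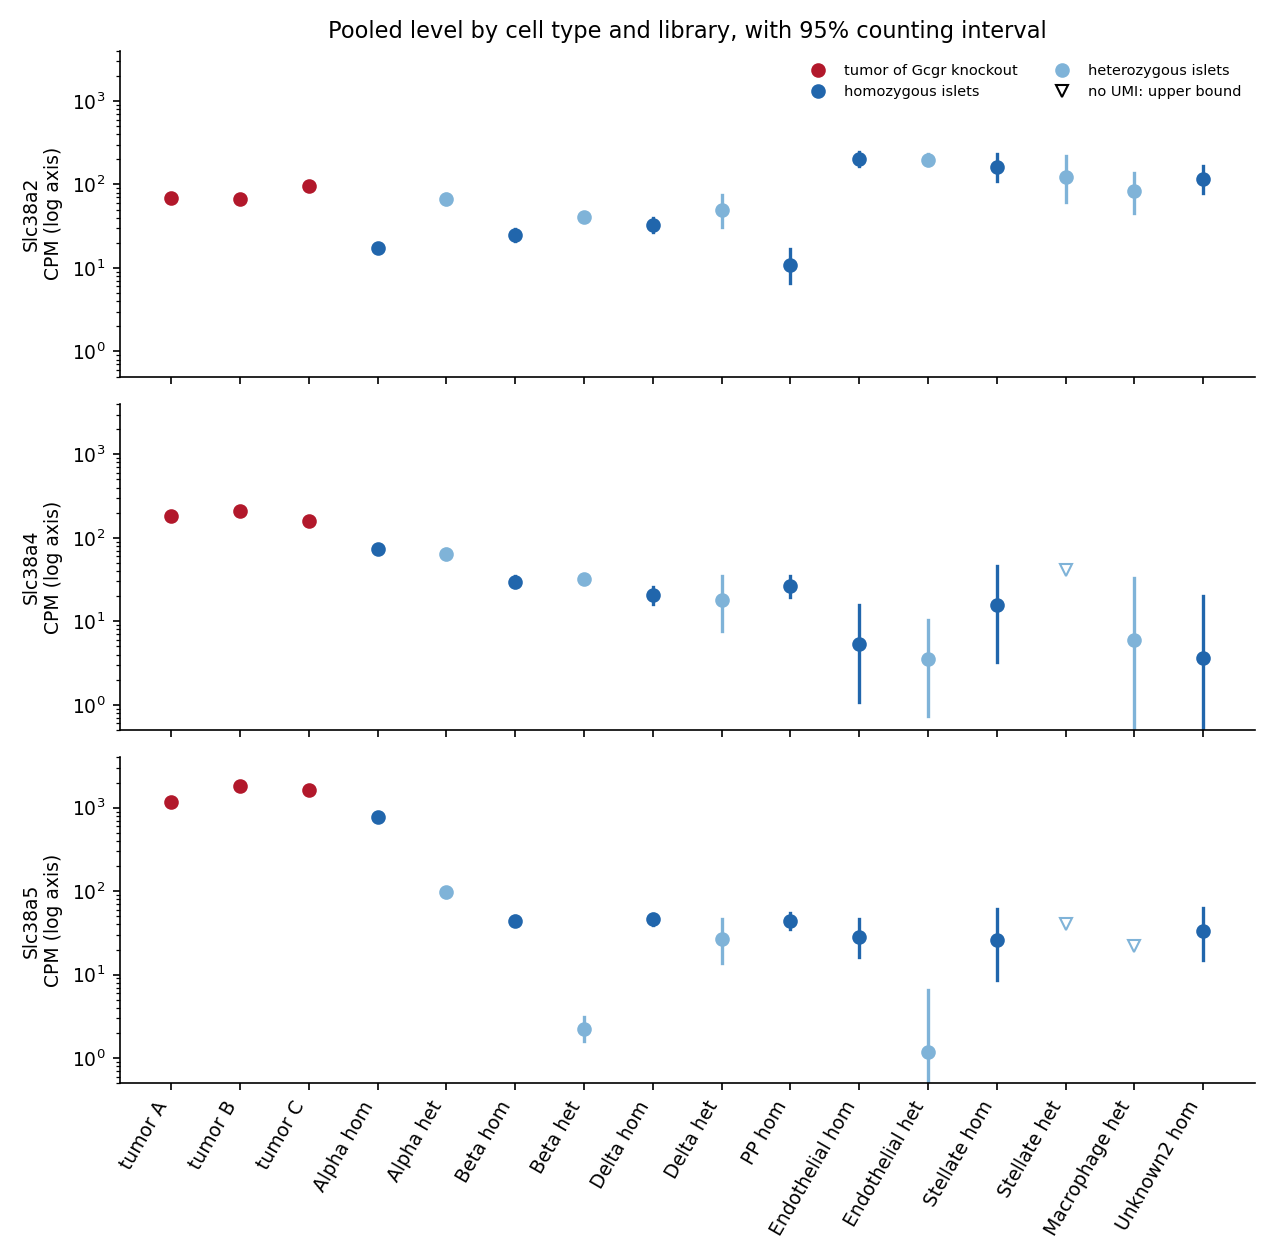
Pooled level (CPM, log axis) of Slc38a2, Slc38a4 and Slc38a5 in tumor cells and in each islet cell type of the homozygous and heterozygous libraries, with exact 95% Poisson intervals; open triangles stand for types with no UMI, at the bound that count allows. Slc38a5 is highest in the tumors and homozygous alpha cells, Slc38a4 in the tumors, and Slc38a2 in endothelial cells (201 CPM in homozygous and 198 CPM in heterozygous islets).

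Outside the alpha lineage, the Slc38a5 levels of homozygous islets lay close together, at 46.1 CPM in delta cells, 44.2 CPM in pancreatic polypeptide (PP) cells, 44.2 CPM in beta cells, 28.3 CPM in endothelial cells (16 UMIs) and 26.3 CPM in stellate cells (5 UMIs). Endothelial cells, which are not endocrine, are given here as the background level. Because free alpha cell RNA would carry Slc38a5 and Gcg in 1 ratio into every type, Slc38a5 was also set against Gcg. Per 10000 Gcg UMIs, homozygous alpha cells held 23.5 Slc38a5 UMIs (95% interval 23.1 to 23.8), beta cells 23.4 (20.6 to 26.5), delta cells 22.6 (19.3 to 26.4), endothelial cells 19.7 (11.3 to 32.0) and PP cells 15.3 (12.1 to 19.0). Relative to Gcg, the Slc38a5 of homozygous beta, delta, PP and endothelial cells was therefore not shown to be higher than that of alpha cells. The interval of PP cells lay below that of alpha cells. The most Slc38a5 UMIs in 1 cell were 15 among beta, 7 among delta, 4 among PP and 2 among endothelial cells, against 165 among alpha cells. Free RNA and cells that carry both transcripts cannot be told apart by this ratio.

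The same measure read differently in heterozygous islets. Heterozygous alpha cells held 2.85 Slc38a5 UMIs per 10000 Gcg UMIs (2.54 to 3.18), beta cells 4.33 (3.08 to 5.92) and endothelial cells 2.86, where the last rests on 1 UMI. Beta cells, at 2.26 CPM of Slc38a5 from 39 UMIs with at most 2 in any cell, had an interval that overlaps that of alpha cells but lies above the alpha cell ratio itself. Heterozygous delta cells held 33.9 per 10000 Gcg UMIs (17.5 to 59.2), an interval that lies above that of the alpha cells, from 12 UMIs in 12 of 62 cells with at most 1 UMI in any cell. The tumors held 32.1, 64.6 and 51.9 Slc38a5 UMIs per 10000 Gcg UMIs.

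**Figure D2:**
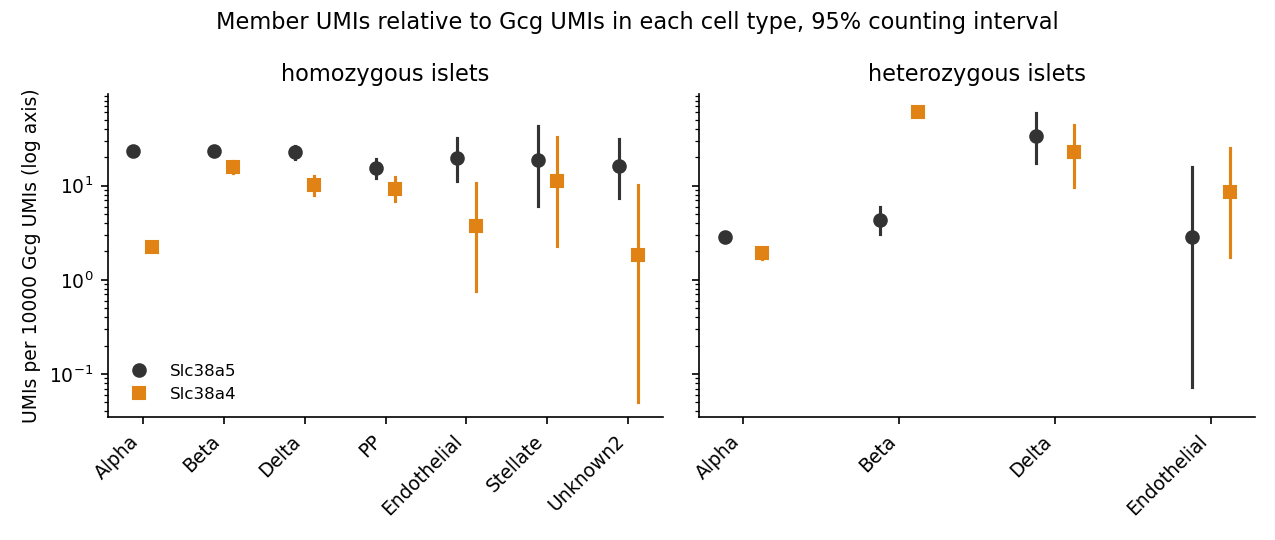
UMIs of Slc38a5 and Slc38a4 per 10000 Gcg UMIs (log axis) by islet cell type, homozygous library left and heterozygous library right, with exact 95% intervals. In homozygous islets the Slc38a5 ratio of beta cells (23.4) lies on that of alpha cells (23.5), whereas the Slc38a4 ratio of beta cells (15.9) lies above that of alpha cells (2.24).

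Gcg differed between the genotypes outside alpha cells as well. The ratio of homozygous to heterozygous Slc38a5 levels was 7.92 in alpha cells (95% interval 7.08 to 8.89), 19.5 in beta cells (13.9 to 28.2), 1.72 in delta cells (0.959 to 3.403) and 24.1 in endothelial cells (3.75 to 1012, from 16 UMIs against 1 UMI). Gcg stood at 18840 CPM in homozygous against 5214 CPM in heterozygous beta cells, and at 14340 CPM against 4100 CPM in endothelial cells of the same libraries, and its part in these ratios was not tested. With 1 library for each genotype none of these ratios has a replicate check or a test.

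Cells of 1 library varied widely in Slc38a5. The authors' graph-based clusters divided homozygous alpha cells into cluster 2.1, with 1087 CPM over 947 cells, cluster 2.2, with 195 CPM over 563 cells, and cluster 2.6, with 54.1 CPM over 15 cells. The clusters were drawn from the same cells and genes, so this is a description. In tumor C, cluster 2 had 1781 CPM and cluster 4 had 1358 CPM, a narrower gap than that between clusters 2.1 and 2.2. Other tumor clusters are not given here. The cell at the tenth percentile of its library had 147, 482 and 453 CPM of Slc38a5 in tumors A, B and C and 0 CPM in both islet libraries. The median cell had 830, 1567 and 1385 CPM in the tumors, 346 CPM in homozygous and 0 CPM in heterozygous alpha cells.

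To compare shares of cells at equal depth, each cell was thinned to 5000 UMIs. After thinning, 5 or more Slc38a5 UMIs were found in 45.1%, 72.7% and 68.7% of cells of tumors A, B and C, in 28.7% of homozygous alpha cells and in 1.54% of heterozygous alpha cells (4 of 259 cells). At least 1 Slc38a5 UMI was found in 92.8% ± 6.82 of tumor cells (SD, n = 3), in 69.5% of homozygous alpha cells (exact 95% interval 67.0 to 71.9) and in 26.6% of heterozygous alpha cells (21.4 to 32.5). Among endothelial cells deep enough to thin, 17.6% of 17 homozygous cells and 0% of 67 heterozygous cells had such a UMI. Without thinning the endothelial shares were 7.01% and 0.513%, at median depths of 2061 and 3587 UMIs, and those of alpha cells were 82.8% in homozygous and 40.8% in heterozygous islets, at 14086 and 10002.5 UMIs.

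**Figure D3:**
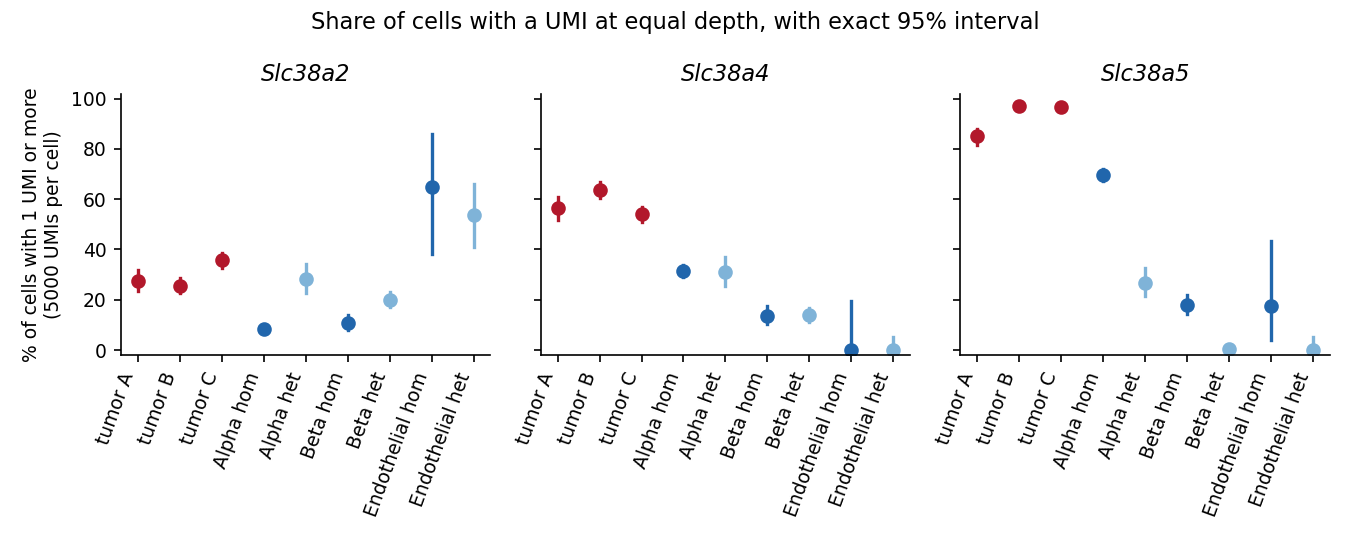
Share of cells with 1 or more UMI of Slc38a2, Slc38a4 and Slc38a5 after thinning every cell to 5000 UMIs (percent, with exact 95% intervals) in the 3 tumors and in alpha, beta and endothelial cells of both islet libraries. The Slc38a2 share of homozygous alpha cells (8.27%) is below that of heterozygous alpha cells (28.2%), the opposite order to Slc38a5.

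Slc38a4, a system A transporter best known from liver, was found in every endocrine type and was highest in the tumors. Its pooled level was 181 CPM in tumor A (95% interval 173 to 190), 208 CPM in tumor B (202 to 214) and 161 CPM in tumor C (155 to 166). It was 73.0 CPM in homozygous alpha cells (69.5 to 76.6) and 64.7 CPM in heterozygous alpha cells (56.2 to 74.1). The alpha cells of both genotypes overlapped in their intervals, with a ratio of homozygous to heterozygous of 1.13 (0.98 to 1.31).

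Beta cells followed, at 29.9 CPM of Slc38a4 in homozygous and 31.9 CPM in heterozygous islets, with a ratio of 0.94 (0.78 to 1.12). PP cells had 26.7 CPM in homozygous islets, and delta cells had 20.6 CPM in homozygous and 17.8 CPM in heterozygous islets. Endothelial cells had 3 Slc38a4 UMIs in each library, or 5.30 CPM in homozygous and 3.51 CPM in heterozygous islets. Set against Gcg, beta cells held 15.9 Slc38a4 UMIs per 10000 Gcg UMIs in homozygous islets and 61.2 in heterozygous islets, against 2.24 and 1.91 in the alpha cells of those libraries. Relative to Gcg, the Slc38a4 of beta cells was thus higher than that of alpha cells. After thinning, 58.0% ± 5.06 of tumor cells had a Slc38a4 UMI (SD, n = 3), against 31.2% of homozygous and 30.9% of heterozygous alpha cells and 0% of endothelial cells of either library.

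Slc38a2, the system A transporter that responds to amino acid shortage, had another order of cell types. It was highest in endothelial cells, at 201 CPM in homozygous islets (166 to 242) and 198 CPM in heterozygous islets (169 to 230), so endothelial cells give no background for this gene. Stellate cells had 163 CPM in homozygous and 122 CPM in heterozygous islets. The tumors had 68.0, 66.5 and 95.5 CPM in A, B and C. Of the 3 tumors, C stood above the others and their intervals did not overlap with its own.

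Homozygous alpha cells had 17.5 CPM of Slc38a2 (15.8 to 19.4), against 67.8 CPM in heterozygous alpha cells (59.1 to 77.4), a ratio of 0.26 (0.22 to 0.31). The median ratio over the 1952 well-detected genes of alpha cells was 0.86. PP cells, at 10.9 CPM (6.67 to 16.8), were the only type in homozygous islets with a lower value, and their interval overlapped that of alpha cells. Both larger clusters of homozygous alpha cells were low, at 15.8 CPM in cluster 2.1 and 20.6 CPM in cluster 2.2. The Slc38a2 ratio was 0.61 in beta cells (0.51 to 0.73), 0.67 in delta cells (0.42 to 1.12), 1.02 in endothelial cells (0.795 to 1.298) and 1.34 in stellate cells (0.65 to 2.94).

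Other measures moved with Slc38a2 between the 2 alpha cell groups. The 10 stress and immediate early genes summed to 438 CPM in homozygous and 3808 CPM in heterozygous alpha cells, and to 2414, 2020 and 2432 CPM in the tumors. Hormone transcripts took 56.5% of UMIs in homozygous and 48.1% in heterozygous alpha cells, and between 41.1% and 42.5% in the tumors. With hormone UMIs left out of the totals the alpha cell ratio of Slc38a2 was 0.31. ATF4, a transcription factor of the amino acid response, and its targets summed to 142 CPM in homozygous and 287 CPM in heterozygous alpha cells. Other plasma membrane amino acid transporters summed to 330 and 815 CPM in the same order, and cell cycle genes to 14.7 and 13.1 CPM. The part of stress genes and of these other lists in the Slc38a2 result was not tested, and library and genotype cannot be told apart.

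Slc38a1, a system A transporter best known from neurons, and Slc38a3, the system N transporter of liver and kidney, were close to absent. Slc38a1 had 2, 1 and 12 UMIs in tumors A, B and C and 2 UMIs in the alpha cells of each islet library. Its highest level was 14.6 CPM, from 4 UMIs, in a small unnamed type of homozygous islets called Unknown2. Slc38a3 gave 1 UMI in tumor C, 1 UMI in homozygous beta cells and 1 UMI in Unknown2. It had 0 UMIs in tumors A and B and in the alpha cells of both islet libraries, for which the limit of 3 counts allows a level of up to 0.297 CPM in tumor A, 0.133 CPM in tumor B, 0.135 CPM in homozygous alpha cells and 0.933 CPM in heterozygous alpha cells. The 6 remaining Slc38 genes, Slc38a6 to Slc38a11, were listed too, and 4 of them passed the filter on low values in the comparison of tumors with alpha cells.

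The tumors were compared with islet alpha cells by limma on log2(mean CPM over cells + 1), with libraries as replicates. The islet arm held 1 library of each genotype, so it mixes them. Over all genes the median change was 0.25 on the log2 scale. Of 10233 genes tested, 2.22% were called in either direction, 2.08% higher and 0.137% lower, at a Benjamini-Hochberg adjusted p of 0.05, and 3 of the 5 transporters passed the filter. Of all calls 93.8% were higher, against 59.7% with DESeq2 and 82.3% with hormone UMIs left out of the totals.

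Slc38a4 was 1 of those called higher, the only call among the 3. Its mean level was 184, 214 and 172 CPM in tumors A, B and C, against 78.0 CPM in homozygous and 66.0 CPM in heterozygous alpha cells. All tumors lay above both islet libraries, whose values were near each other. Among the other amino acid transporters tested, Slc1a4, Slc1a5, Slc7a1, Slc7a5, Slc7a6 and Slc36a4 also had all tumors above both islet libraries. The rest, Slc3a2 and Slc7a2 among them, did not. The share of all genes with such a split was not counted. The Slc38a4 difference was 1.39 ± 0.24 on the log2 scale (SE), or 1.14 above the median gene, with a limma adjusted p of 0.0348. The call was lost on leaving out any 1 library, with differences of 1.266 to 1.504 and adjusted p between 0.0692 and 0.136. It was also lost with TMM scaling (1.17, adjusted p 0.130), edgeR (1.17, 0.152), hormone UMIs left out of the totals (1.11, 0.0948), cluster 2.1 as the only homozygous cells (1.26, 0.070) and no filter (1.39, 0.0925).

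Slc38a5 averaged 1098, 1813 and 1644 CPM in tumors A, B and C, against 741 CPM in homozygous and 84.0 CPM in heterozygous alpha cells. The groups did not overlap, a split whose share over all genes was not counted. The 2 islet libraries differed from each other by more than the homozygous library did from any tumor on the log2 scale. The difference was 2.56 ± 0.78, with a limma adjusted p of 0.122. It was 1.00 without the heterozygous library, with an adjusted p of 0.244, and 4.13 without the homozygous library, with an adjusted p of 0.0313.

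Slc38a2 averaged 73.2, 69.0 and 99.8 CPM in tumors A, B and C, against 18.7 CPM in homozygous and 71.0 CPM in heterozygous alpha cells. The heterozygous value lay among the tumors, so the groups overlapped. The difference was 1.10 ± 0.49 on the log2 scale, with a limma adjusted p of 0.247. It was 2.03 without the heterozygous library (adjusted p 0.105) and 0.16 without the homozygous library (0.804).

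**Figure D4:**
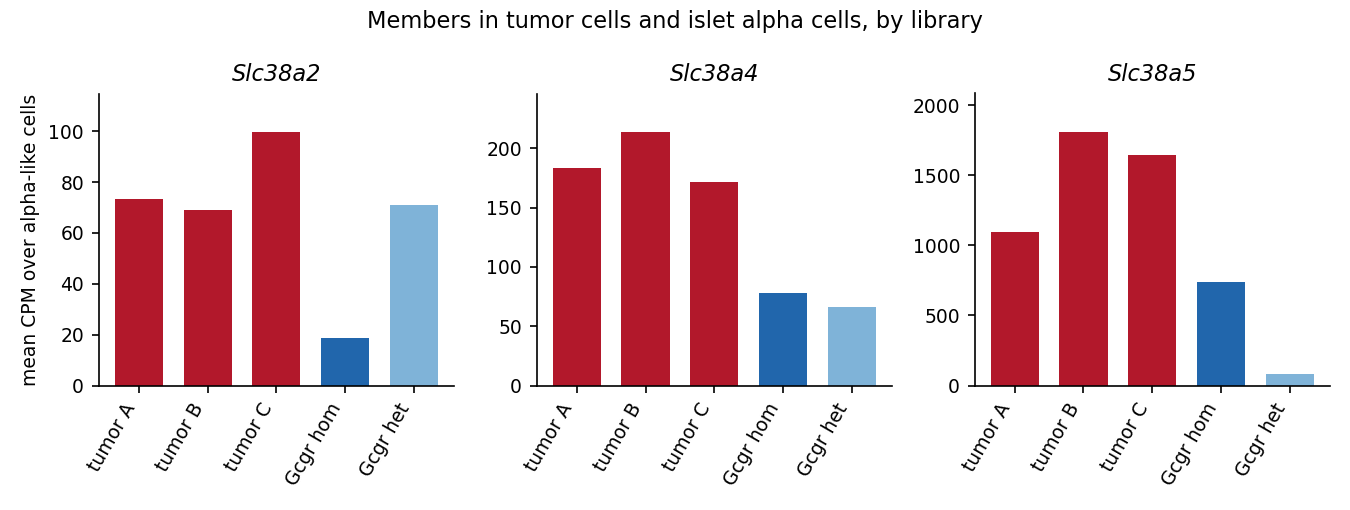
Mean level over cells (CPM) of Slc38a2, Slc38a4 and Slc38a5 in the 3 tumor libraries and in the alpha cells of the homozygous and heterozygous islet libraries, 1 bar for each library. Slc38a4 separates the tumors (172 to 214 CPM) from both islet libraries (66.0 and 78.0 CPM), a split whose share over all genes was not counted. The 2 islet libraries differ from each other for Slc38a5 and Slc38a2.

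Other genes of amino acid handling gave no call in this comparison. Among other plasma membrane amino acid transporters 14 of 28 were tested, with 0 called by limma, 5 at an unadjusted p under 0.05 and a median change of 0.60. Over all genes tested the median was 0.25 and 21.4% had an unadjusted p under 0.05. DESeq2 called 1 of these higher and edgeR 0. The 4 tested of Slc38a6 to Slc38a11 gave 0 calls and a median of 0.01, with 0 at an unadjusted p under 0.05. Of enzymes that make or use glutamine, glutamate, alanine and asparagine 8 of 11 were tested, with 0 called, 0 at an unadjusted p under 0.05 and a median of 0.31. Of ATF4, a transcription factor of the amino acid response, and its targets 8 of 12 were tested, with 0 called, 3 at an unadjusted p under 0.05 and a median of 0.52. For the last 3 lists edgeR and DESeq2 called 0 genes too.

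Of the 9 cycle genes tested limma called 6 higher (median 2.37), edgeR 3 and DESeq2 9. The 6 kept their sign under all 14 alternatives but passed the threshold in only 4 to 8 of them. Among them was Ube2c, a mitotic ubiquitin-conjugating enzyme, with 19.6, 14.5 and 28.9 CPM in the tumors against 3.37 CPM in homozygous and 1.40 CPM in heterozygous alpha cells, called in 6 of 14. Of the 10 stress genes 2 were called by limma, 2 by DESeq2 and 0 by edgeR. Fosb, an immediate early factor, was called higher, at 698, 527 and 634 CPM in the tumors against 14.1 CPM in homozygous and 117 CPM in heterozygous alpha cells (limma adjusted p 0.0387). Hspa1a, a heat shock chaperone, was called lower, at 2.50, 4.42 and 21.9 CPM in the tumors against 85.6 CPM in homozygous and 412 CPM in heterozygous alpha cells (adjusted p 0.0384). Fosb and Hspa1a kept their sign under all 15 alternatives and passed the threshold in 6. The part of these genes in the Slc38a4 result was not tested.

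The transporters were next followed within libraries, by dividing alpha lineage cells into those with and without a Slc38a5 UMI after thinning. The positive and negative classes held 407 and 72 cells in tumor A, 816 and 26 in tumor B, 1032 and 36 in tumor C, 992 and 435 in homozygous and 69 and 190 in heterozygous islets. The library was a block in the limma model, and 11034 genes were tested without Slc38a5, which chose the classes. Of these, 0.163% were called higher and 0.0453% lower, 0.208% in either direction. Among them were 0 of the 2 other transporters tested, by limma, edgeR or DESeq2, although Slc38a4 had an unadjusted p under 0.05 (0.000474). The share of calls that were higher was 78.3%, against 47.6% under TMM scaling and 26.3% with hormone UMIs left out of the totals.

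Slc38a4 was higher in the Slc38a5-positive class in 5 of 5 libraries, without passing the threshold. Among the other amino acid transporters tested, Slc7a5, Slc7a6, Slc7a8, Slc36a4 and Slc43a2 were also higher in 5 of 5. The rest were higher in fewer, for example Slc7a2 in 4, Slc3a2 in 3 and Slc7a1 in 2. The median gene was higher by 0.15, and the share of all genes higher in 5 of 5 libraries was not counted. Slc38a4 averaged 191 CPM in positive and 138 CPM in negative cells of tumor A, 217 and 133 CPM in tumor B, and 171 and 140 CPM in tumor C. In homozygous alpha cells it averaged 84.8 CPM in positive and 61.6 CPM in negative cells, and in heterozygous alpha cells 76.5 and 65.1 CPM. The difference was 0.43 ± 0.10 on the log2 scale, or 0.28 above the median gene, with a limma adjusted p of 0.0763. Without the heterozygous library it was 0.48, with an adjusted p of 0.0335.

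Slc38a2 had no common direction. It averaged 68.7 CPM in positive and 93.5 CPM in negative cells of tumor A, 69.0 and 82.3 CPM in tumor B, and 101 and 69.0 CPM in tumor C. In homozygous alpha cells it averaged 17.1 CPM in positive and 20.7 CPM in negative cells, and in heterozygous alpha cells 85.5 and 63.6 CPM. It was higher in positive cells in 2 of 5 libraries, with a difference of 0.00 ± 0.15 and a limma adjusted p of 0.996. All of Slc38a2, Slc38a4 and Slc38a5 were found in 14.2%, 16.1% and 18.4% of thinned cells of tumors A, B and C, in 1.61% of homozygous and in 3.47% of heterozygous alpha cells.

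**Figure D5:**
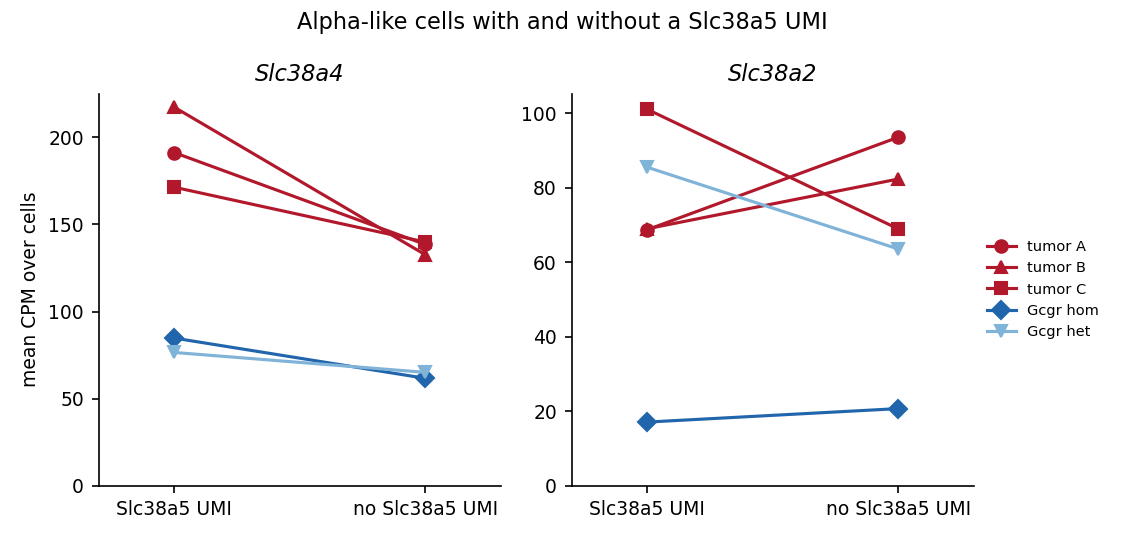
Mean level over cells (CPM) of Slc38a4 and Slc38a2 in alpha lineage cells with and without a Slc38a5 UMI after thinning to 5000 UMIs, a pair of points for each of the 5 libraries. Slc38a4 is higher in the positive cells in 5 of 5 libraries and Slc38a2 in 2 of 5, counts whose share over all genes was not taken.

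Hormone share, depth and stress genes also moved between the classes. Hormone transcripts took 41.7%, 41.0% and 40.9% of UMIs in positive cells of tumors A, B and C, against 48.0%, 48.7% and 47.8% in negative cells. They took 55.17% in positive and 59.98% in negative cells of homozygous islets, and 48.5% in both classes of heterozygous islets. Median depth before thinning was higher in positive cells in every library, for example 20970 UMIs in positive and 16521.5 UMIs in negative cells of tumor A. With hormone UMIs left out of the totals the Slc38a4 difference was 0.29 (adjusted p 0.387).

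Stress genes gave the calls of the fixed lists in this comparison. All 10 had negative changes and 3 were called lower in Slc38a5-positive cells, namely the immediate early genes Ier2 (-0.88, limma adjusted p 0.0115), Atf3 (-0.95, 0.0353) and Jun (-0.52, 0.0463). Of the 10, edgeR and DESeq2 each called 8 lower, and 7 had an unadjusted limma p under 0.05. Ier2, Atf3 and Jun kept their sign under 15 alternatives. Ier2 passed the threshold in 10 of them and Atf3 and Jun in 7, but none did without tumor A, where 0 genes were called in all. The list summed to 2334, 2004 and 2378 CPM in positive cells of tumors A, B and C, against 2926, 2583 and 4170 CPM in negative cells. It summed to 326 CPM in positive and 686 CPM in negative cells of homozygous islets, and to 3175 and 4003 CPM in heterozygous islets. The part of these genes in the Slc38a4 values was not tested. No other list had a call, with 0 of 14 other amino acid transporters (median 0.33), 0 of 4 other Slc38 genes (-0.06), 0 of 8 enzymes (0.17), 0 of 10 ATF4 response genes (0.32) and 0 of 9 cycle genes (0.91), against a median of 0.15 over all genes. At an unadjusted p under 0.05 these lists held 5, 0, 1, 2 and 2 genes in the same order, against 15.5% of all genes tested, and edgeR called 2 of the cycle genes higher and 0 in the other lists.

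Cycling tumor cells were taken as those in which at least 2 of 11 cycle genes had a UMI in the thinned counts, and they were set against the other cells of the same tumor. They numbered 27, 40 and 66 in tumors A, B and C, against 452, 802 and 1002 other cells. In this comparison 9.39% of 10916 genes were called higher and 1.67% lower, 11.1% in either direction. Of the 3 transporters tested 0 were called by limma, with 0 at an unadjusted p under 0.05, which 23.3% of all genes tested had. The share of calls that were higher was 84.9%, against 50.4% under TMM scaling and 64.3% with hormone UMIs left out of the totals. Slc38a5 averaged 1421 CPM in cycling and 1088 CPM in other cells of tumor A, 1941 and 1807 CPM in tumor B, and 1659 and 1644 CPM in tumor C, a difference of 0.17 ± 0.10 (limma adjusted p 0.323).

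Slc38a4 averaged 145 CPM in cycling and 186 CPM in other cells of tumor A, 184 and 216 CPM in tumor B, and 171 and 170 CPM in tumor C. Its difference was -0.19 ± 0.12, with a limma adjusted p of 0.371. Under TMM scaling it was -0.41 and passed the threshold (adjusted p 0.0293), as it did with edgeR (-0.43, 0.0105), and under both the Slc38a5 difference was negative. Slc38a2 averaged 74.2 CPM in cycling and 72.3 CPM in other cells of tumor A, 57.21 and 69.98 CPM in tumor B, and 116 and 99.0 CPM in tumor C, a difference of -0.01 ± 0.15 (adjusted p 0.985). Hormone transcripts took 36.9%, 37.9% and 33.2% of UMIs in cycling cells of tumors A, B and C, against 42.8%, 41.3% and 41.7% in other cells, and their part was not tested.

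Some genes of amino acid metabolism did differ in cycling cells. Psat1, an enzyme of serine synthesis and an ATF4 target, rose by 1.43 ± 0.24 on the log2 scale (limma adjusted p 0.000466, past the threshold under all 13 alternatives), at 31.7, 38.9 and 20.2 CPM in cycling cells of tumors A, B and C against 10.99, 11.44 and 8.43 CPM in other cells. It was the only call of limma and of DESeq2 among 9 ATF4 response genes tested, whose median was -0.28, while edgeR called 1 higher and 2 lower. Of the 8 enzymes, Asrgl1, an asparaginase, rose by 0.69 ± 0.18 (adjusted p 0.0154) and Glul, glutamine synthetase, fell by 0.54 ± 0.16 (0.0391), calls that held in 6 and 7 of 13 alternatives, while edgeR called 0 of the 8 higher and 3 lower. Among 10 stress genes Dusp1, a phosphatase, rose by 0.43 (adjusted p 0.043, in 3 of 13 alternatives), while Fosb fell by 0.78, Junb by 0.55 and Egr1 by 0.51, and edgeR called 0 higher and 6 lower. Of 14 other amino acid transporters limma called 0 (median -0.08), with 3 at an unadjusted p under 0.05, while edgeR called 3 lower and DESeq2 1. Of the 3 other Slc38 genes tested 0 were called by any of the 3 tools (median -0.16).

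The genes whose levels were most like each transporter were found by Pearson's r of log2(CPM + 1) over 16 groups, made of the islet types by library and the 3 tumors, among 11053 genes. The groups of 1 library share its depth and free RNA, so r is given as a description. For Slc38a5 they were Cnih2 (0.97), a partner of glutamate receptors, Irx2 (0.96), a transcription factor of alpha cells, and Apoa2 (0.96), an apolipoprotein. Cnih2 had 52.0, 66.6 and 32.5 CPM in tumors A, B and C, 21.4 CPM in homozygous and 7.77 CPM in heterozygous alpha cells. Apoa2 had 263, 444 and 290 CPM in the tumors, 313 CPM in homozygous and 45.1 CPM in heterozygous alpha cells. Irx2 had 99.0, 174 and 144 CPM in the tumors but 85.5 CPM in homozygous and 86.1 CPM in heterozygous alpha cells, so it did not share the difference between the islet libraries. For Slc38a4 they were Map3k15 (0.96), a MAP kinase kinase kinase, Hid1 (0.94), a protein of secretory granule formation, and 9030622O22Rik (0.92), while for Slc38a2 they were Crebbp (0.96), a histone acetyltransferase, Hnrnpul1 (0.95), an RNA-binding protein, and Api5 (0.95), an inhibitor of apoptosis. Slc38a1 and Slc38a3 stayed below the level of 20 CPM set for this measure.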

How the data were processed

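Dissociated islet and tumor cells were made into 5 single-cell libraries with a 10x Genomics Chromium kit, per the labels' protocols. The submitters' processing notes name CASAVA 1.8, bcl2fastq 2.17, GSNAP and GRCm38; no source names the tool that counted UMIs. The authors deposited a signal per gene and cell, UMIs scaled to the cell's total, and, for islets, counts of UMIs per cell with type names and clusters, per the file headers. Whole UMIs were recovered from the scaled signal (every value within 0.01) and used as counts; CPM is relative to the authors' cell total in the tests and to recovered UMIs where pooled. Cells with under 1000 UMIs, under 500 genes or over 20% mitochondrial UMIs were to be left out (0 failed), as were doublets called by Scrublet (scanpy 1.11.5), leaving 6594 cells.

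Libraries were the replicates. limma 3.58.1 (R 4.3.3) was run on log2(mean CPM + 1) for genes with 5 CPM in 2 libraries or classes, with Benjamini-Hochberg adjustment over all genes tested. edgeR 4.0.16 and DESeq2 1.42.0 on summed counts, 2 other pseudocounts, no filter, other scalings, no block, and each library left out were alternatives. Scripts were tested on simulated data. All 5 transporters were named in every comparison, with the 3 genes most alike and up to 4 called genes of each list. The transporters and lists were chosen with earlier results of these data known. Intervals are exact Poisson, binomial or Clopper-Pearson at 95%. Nothing says whether an islet library pools several mice. The p-values of tumors against alpha cells thus rest on the spread between these libraries, which includes the difference between islet genotypes. With the library as a block, p-values rest on how the class difference varies across libraries.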

Additional observations from a re-analysis of the deposited data

Results flagged for a closer look

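Slc38a2 had ratios of homozygous to heterozygous islets on both sides of 1: 0.2589 in alpha, 0.6115 in beta and 0.6734 in delta cells, but 1.018 in endothelial and 1.335 in stellate cells. The endothelial ratio was 0.9755 with the mean over cells, and the stellate ratio rests on 31 against 11 UMIs. The intervals of delta, endothelial and stellate cells include 1, so no cell type was shown to move the opposite way. The difference between types was not tested, since each genotype is 1 library. Slc38a4 had a ratio of 1.128 in alpha cells and 0.9376 in beta cells, both with intervals that include 1, and the difference was not tested.

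Slc38a2 was lower in Slc38a5-positive than in negative alpha cells of homozygous islets (ratio 0.825) and higher in those of heterozygous islets (ratio 1.346), a difference that was not tested.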

How the results depend on the processing

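Leaving out hormone UMIs gave homozygous over heterozygous ratios in alpha cells of 0.3087 for Slc38a2, 1.345 for Slc38a4 and 9.444 for Slc38a5; doublet removal and the mean over cells moved no ratio of these past its interval. The share of cells with a UMI rises with depth. At 2000 UMIs it was 14.21% in tumors, 3.869% in homozygous and 12.13% in heterozygous alpha cells for Slc38a2, 30.54%, 13.77% and 10.16% for Slc38a4, and 83.11%, 51.61% and 14.43% for Slc38a5. Without thinning the shares were 73.46%, 20.85% and 43.14% for Slc38a2, 92.37%, 58.69% and 46.08% for Slc38a4, and, in islets, 82.75% and 40.85% for Slc38a5.

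For tumors against alpha cells, 213 genes were higher and 14 lower. A pseudocount of 5 gave 24 lower, no filter 6 higher and 0 lower, TMM scaling 40 and 5, edgeR 43 and 6, DESeq2 400 and 270, hormones left out 51 higher, and cluster 2.1 as the only homozygous cells 108 and 7. Leaving out 1 library gave 13 (without the heterozygous library) to 143 higher and 0 to 23 lower. Slc38a4 missed the threshold with no filter (1.385), TMM (1.172), edgeR (1.168), hormones left out (1.112), cluster 2.1 alone (1.26) and each library left out (1.266 to 1.504); its adjusted p ran from 0.00506 to 0.152. Without a filter more genes are tested. Leaving out 1 library gave 1.001 to 4.128 for Slc38a5 and 0.1637 to 2.031 for Slc38a2; without an islet library the lone one is assumed to vary like the others.

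For Slc38a5-positive against negative cells, 18 genes were higher and 5 lower. A pseudocount of 0.1 gave 1 and 0, a pseudocount of 5 gave 52 and 11, no filter 0 and 0, TMM 10 and 11, edgeR 82 and 50, DESeq2 31 lower, hormones left out 5 and 14, and thinning to 2000 UMIs 0 and 0. Without the replicate block, in which both classes of 1 library form a pair, the counts were 0 and 0. Leaving out 1 library gave 0 (tumor A) to 156 (heterozygous) higher and 0 to 15 lower. Slc38a2 turned negative with TMM (-0.07755), edgeR (-0.1498), DESeq2 (-0.1739), hormones left out (-0.1663) and thinning to 2000 UMIs (-0.1821), and was -0.1333 to 0.1132 with 1 library left out; Slc38a4 was 0.3594 to 0.479.

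For cycling against other tumor cells, 1025 genes were higher and 182 lower. A pseudocount of 0.1 gave 115 lower, no filter 406 higher and 10 lower, TMM 676 lower, edgeR 993 lower, DESeq2 655 higher, hormones left out 436 lower, and no replicate block 345 higher and 1 lower. Leaving out 1 tumor gave 830 to 889 higher and 117 to 237 lower. Slc38a4 passed the threshold with TMM (-0.4111) and edgeR (-0.4289). Slc38a5 turned negative with TMM (-0.05229) and edgeR (-0.1089). Slc38a2 turned positive with 3 or more cycle genes (0.05169) and was -0.1249 to 0.1298 with 1 tumor left out. The cause was not tested for any of these shifts. At 2061 UMIs, the median of homozygous endothelial cells, low shares cannot be told from background, and Slc38a1 and Slc38a3 were too rare to compare.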
